A study of Mus musculus with 4 samples.

Results

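Integrins are the receptors that hold cells to the matrix and to each other, and 34 genes of this system were followed here across the cell classes of the mouse heart interstitium. They were taken from a fixed list of symbols: 18 α chains, 8 β chains and 8 cytoplasmic linkers. All 34 symbols were found among the 32286 features of the count table. An integrin is a pair of 1 α and 1 β chain that spans the membrane, and the pair sets what it binds: collagen, laminin, proteins with the RGD tripeptide, or counter-receptors on other cells. Talins and kindlins bind the tails of the β chains and bring the receptor into its active state. Integrin-linked kinase, parvin, vinculin and focal adhesion kinase then couple it to actin and to signalling. In the heart these receptors anchor capillaries, pericytes and fibroblasts in their matrix, and they carry leukocytes through the vessel wall.

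The series profiled hearts of Ccr2creERT2-Ai14 mice, whose names give a tamoxifen-inducible Cre under Ccr2 and a Cre-dependent tdTomato reporter, 1 month after stroke or a control condition. There were 2 samples in each of these groups, and both groups shared the strain and the tissue. Hearts were cut and digested for 30 min, strained to remove cardiomyocytes, freed of red and dead cells and sorted for live nucleated cells. Single-cell libraries came from 3′ chemistry. Whether tamoxifen was given, the age and sex of the mice, and whether a sample pooled animals are not stated in the labels.

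The deposited table joined 39731 barcodes whose suffixes, 1 to 4, no label ties to a sample. Stroke and control could therefore not be compared, and the table counts as 1 sample. The suffixes are called libraries 1 to 4, and their values are printed to show how far a level moved between libraries of unknown condition. The libraries held between 8675 and 10086 analysed cells each, with a median of 2582.5 to 3496 UMIs (unique molecules counted) per cell. In all, 161 barcode sequences occurred in more than 1 library. Clustering on genes other than these 34 left 35874 cells in 19 marker-named classes: 5 endothelial-like with 22850 cells, 5 mesenchymal-like with 8498 and 9 immune-like with 4526. Endothelial, fibroblast, mural and leukocyte markers were all present, as the interstitial label says, and 34 cells were cardiomyocyte-like. Library 2 held 915 of the 1505 B-cell-like and 194 of the 404 non-classical-monocyte-like cells, and library 3 held 612 of the 7602 fibroblast-like and 574 of the 1089 macrophage-like cells. Levels below are UMIs summed over a class, divided by all UMIs of that class and scaled to CPM, and intervals are exact 95% intervals that cover counting error only. CPM values were not divided by transcript length. A gene was compared between classes, and levels of different genes are set side by side without a ranking.

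Across the 19 classes the members gave 392426 UMIs. Of the 33 members with at least 50 UMIs, 30 stood at least 2-fold higher in their highest class than in all other cells. The same held for 74.2% of all 16727 features with that depth, so this share is stated as a description. The exceptions were Itga5, Ilk and Parva. Among these 33 the highest class was pericyte-like for 6, non-classical-monocyte-like for 5, Schwann-like for 5 and NK-cell-like for 3. The share of all features with each highest class was not counted, so these numbers are description only. Of the Schwann-like 5, Ilk and Itgb4 rest on 29 UMIs each. Ilk there did not differ from capillary-like cells beyond counting error (ratio 1.02, interval 0.68 to 1.46). Over all 34, the highest class was the same in 4 of 4 libraries for 19 members and in 3 of 4 for 9. Where only classes with more than 50000 UMIs in a library were ranked there, these numbers were 17 and 7. The same count over all features was not made, so it is not known whether the members differ from other genes in this.

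**Figure D1:**
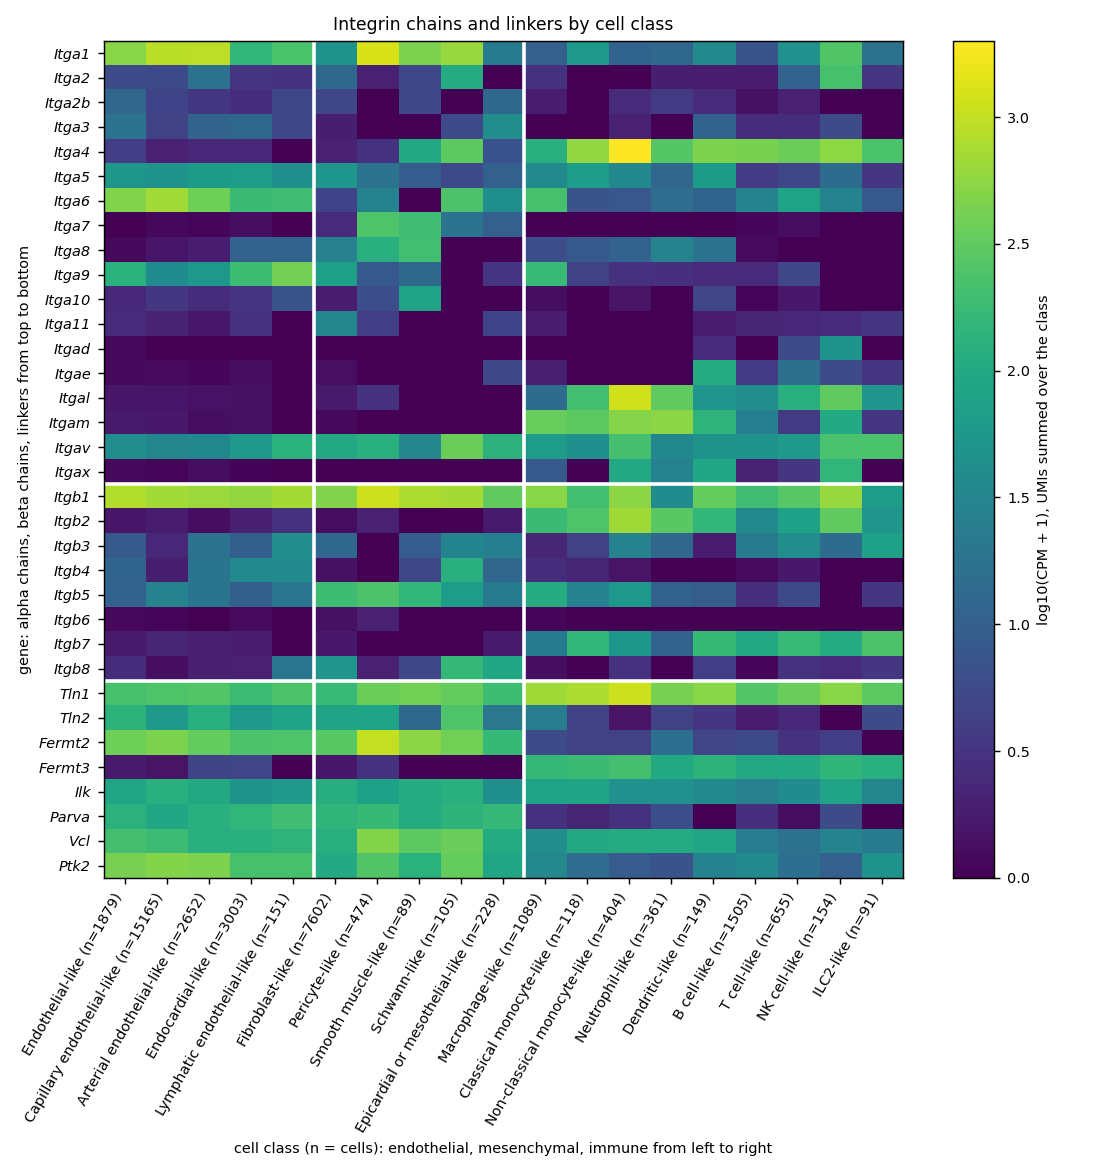
Level of each of the 34 genes (rows: α chains, β chains, linkers) in each of the 19 cell classes (columns, with cell numbers), as log10(CPM + 1) of summed UMIs, from dark (0) to bright (highest). The block of Itga4, Itgal, Itgam, Itgb2, Itgb7 and Fermt3 is bright on the immune side at the right, and Fermt2 and Parva are bright on the other side.

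The split between immune-like and non-immune classes ran through all 3 roles. Of the 33 members, 11 were at least 2-fold higher in immune-like than in non-immune cells, where 17.6% of features were, and 18 were at least 2-fold lower, where 30.5% were. The median log2 ratio was -1.31 over the members and -0.30 over all features. By role, 6 of 18 α chains were higher and 9 lower, 3 of 7 β chains were higher and 3 lower, and 2 of 8 linkers were higher and 6 lower. Endothelial-like against mesenchymal-like cells gave 9 members higher and 9 lower, beside 18.6% and 19.8% of features. The 9 higher were Itga1, Itga3, Itga6, Itgb4 and Ptk2, and also Itgam, Itgax, Itgb2 and Fermt3. Itgam, Itgax, Itgb2 and Fermt3 stood at no more than 1.61 CPM in all endothelial-like cells together. In any single endothelial-like class they stood at no more than 3.96 CPM. The 9 lower were Itga2, Itga4, Itga7, Itga8, Itga11, Itgav, Itgb3, Itgb5 and Itgb8.

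By class, the members at least 2-fold above all other cells numbered 8 of 33 in pericyte-like cells (13.5% of features), among them the collagen receptor Itga1, the muscle laminin receptor Itga7, Itgb1, Itgb5, Fermt2 and Vcl. Smooth-muscle-like cells had 4 (12.2%), all also among the pericyte-like ones. Schwann-like cells had 9 (14.2%), with Itga4, Itgav, Itgb4, Itgb8 and Tln2. Fibroblast-like cells had 4 (14.7%: Itga8, Itga11, Itgb5 and Itgb8) and mesothelial-like cells 6 (11.5%). Endothelial-like classes had 3 in capillary-like cells (10%: Itga1, Itga6 and Ptk2), 5 in arterial-like (6.3%), 3 in endocardial-like (6.78%: Itga3, Itga9 and Itgb4), 4 in lymphatic-like (9.96%) and 3 in Kirrel3-led cells (5.52%).

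Among immune-like classes the numbers were higher for NK-cell-like cells with 12 (13.4%), dendritic-like with 11 (11%) and non-classical-monocyte-like with 10 (11.7%). T-cell-like cells had 8 (12%), classical-monocyte-like 7 (12.1%), neutrophil-like 7 (11.3%), macrophage-like 6 (11.8%), ILC2-like 5 (10.9%) and B-cell-like 4 (11.8%). Fermt3 was among them in all 9 of these classes, and Itga4 in all but macrophage-like cells. The rule set no minimum of UMIs within the class itself, so the numbers include members at very low levels there. Among the dendritic-like 11 were Itgad at 1.53 CPM, Itga10 at 3.83 CPM and Itga3 at 9.96 CPM. The NK-cell-like 12 included Itgae at 4.60 CPM. The same limit holds for the non-immune classes, as with Itgae at 4.27 CPM in mesothelial-like cells.

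The kindlins divided between the compartments, and the DNA before the start of each kindlin gene is printed below. Fermt2, kindlin-2, is the kindlin of most solid tissues, and Fermt3, kindlin-3, that of blood cells. Fermt2 reached 986 CPM in pericyte-like cells (interval 925 to 1050), with 1030, 768, 1077 and 938 CPM in libraries 1 to 4. Every non-immune class had at least 163 CPM of Fermt2, and every immune-like class at most 14.8 CPM, so the ranges did not overlap. Fermt3 did the reverse. It was highest in non-classical-monocyte-like cells at 211 CPM (interval 192 to 232), with 224, 213, 209 and 194 CPM by library, and classical-monocyte-like cells at 179 CPM could not be told from them (ratio 1.18, interval 0.98 to 1.43). Immune-like classes held 97.1 to 211 CPM of Fermt3 and non-immune classes at most 3.96 CPM.

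As log2 ratios of immune-like over non-immune cells, Fermt2 stood at -6.27 and Fermt3 at 6.86. The Fermt2 value was -4.07 when barcodes called doublets were kept and -4.37 when sub-clusters carrying markers of another lineage were kept. A UMI of Fermt2 was found in 79.3% of pericyte-like cells (median 2005.5 UMIs) and in 1.99% of B-cell-like cells (median 3971 UMIs). A UMI of Fermt3 was found in 58.2% of non-classical-monocyte-like cells (median 4916 UMIs) and in 0.106% of capillary-like cells (median 2083 UMIs).

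**Figure D2:**
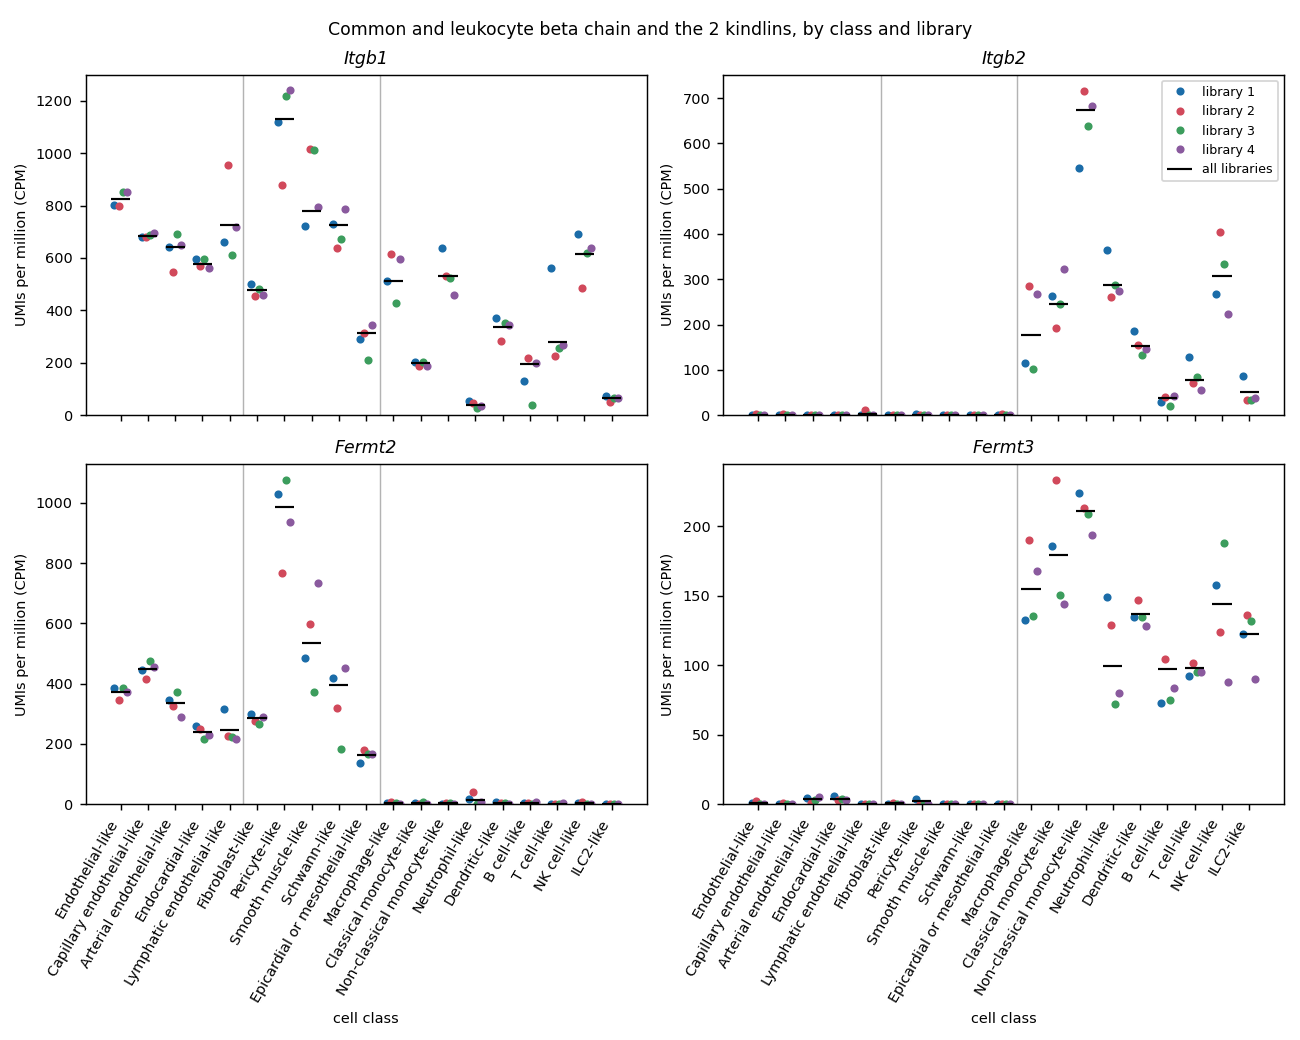
Levels of Itgb1, Itgb2, Fermt2 and Fermt3 in CPM (y axis, from 0) by cell class (x axis), with a dot for each library and a line for all libraries together. Itgb2 and Fermt3 rise only to the right of the second grey line, where the immune-like classes begin, and Fermt2 only to the left of it.

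The 250 bases before the RefSeq start (GRCm38.p6) are shown for both kindlins, for Vcl of the pericyte-like group and for Itgam of the myeloid group. They were chosen after the values had been seen. Capitals mark a CArG box in Fermt2 and Vcl, the site bound by serum response factor, and the letters GAGGAA, a core bound by PU.1-type factors, on either strand in the other pair. Fermt2 lies on the minus strand at chr14:45530066-45530315, Vcl on the plus strand at chr14:20929148-20929397, Fermt3 on the minus strand at chr19:7019470-7019719 and Itgam on the plus strand at chr7:128062390-128062639.
Fermt2: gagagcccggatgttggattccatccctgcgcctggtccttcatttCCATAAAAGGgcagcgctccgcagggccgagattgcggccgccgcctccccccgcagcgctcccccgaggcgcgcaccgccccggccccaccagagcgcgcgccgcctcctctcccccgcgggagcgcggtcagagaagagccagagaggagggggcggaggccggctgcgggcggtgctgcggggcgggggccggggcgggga
Vcl: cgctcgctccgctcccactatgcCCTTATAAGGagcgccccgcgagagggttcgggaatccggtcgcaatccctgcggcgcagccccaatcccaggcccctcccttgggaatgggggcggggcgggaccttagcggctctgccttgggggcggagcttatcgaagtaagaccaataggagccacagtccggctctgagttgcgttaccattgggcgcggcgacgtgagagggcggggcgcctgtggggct
Fermt3: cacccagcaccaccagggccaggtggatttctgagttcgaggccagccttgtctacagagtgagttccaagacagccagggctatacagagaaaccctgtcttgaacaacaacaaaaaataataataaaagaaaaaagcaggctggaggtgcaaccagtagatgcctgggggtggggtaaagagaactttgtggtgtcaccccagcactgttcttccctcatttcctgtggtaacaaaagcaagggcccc
Itgam: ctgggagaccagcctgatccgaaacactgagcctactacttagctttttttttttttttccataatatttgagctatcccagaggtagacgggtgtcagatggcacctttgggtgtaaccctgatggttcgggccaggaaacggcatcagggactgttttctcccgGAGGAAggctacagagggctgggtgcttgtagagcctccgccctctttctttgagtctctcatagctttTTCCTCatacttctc
Of 32851 promoter entries, 482 (1.47%) held a CArG box in this window and 7639 (23.3%) held GAGGAA on either strand. The Fermt2 and Vcl windows had 1 CArG match each. Itgam had 2 GAGGAA matches, and Fermt3 had 0. Of the 23 members with an entry, 3 held a CArG box (Fermt2, Vcl and Itgb6) and 9 held GAGGAA: Itga2b, Itga3, Itga5, Itga11, Itgam, Itgav, Itgb1, Itgb6 and Tln1. GAGGAA was therefore found on both sides of the split and not in the windows of Itga4, Itgax and Itgb7. These are matches of letters and not binding sites. A member was counted where any of its entries matched, whereas the percentages are per entry. Itga3 and Itgb6 matched in some but not all of their entries. Promoter entries were found for 23 of the 34 members, and those of Itga6, Itga7, Itgad, Itgae, Itgal, Itgb2, Itgb3, Itgb4, Tln2, Parva and Ptk2 are not shown.

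Among the β chains, Itgb1 pairs with more α chains than any other and was present in every class. It was highest in pericyte-like cells at 1130 CPM (interval 1064 to 1198), with 1119, 878, 1218 and 1240 CPM by library, and next in Kirrel3- and Samd5-led endothelial-like cells at 827 CPM. Non-immune classes held 314 to 1130 CPM. Immune-like classes ran from 38.4 CPM in neutrophil-like and 63.6 CPM in ILC2-like cells to 614 CPM in NK-cell-like cells, so the 2 compartments overlapped. Its log2 ratio of immune-like over non-immune cells was -0.82. Itgb1 UMIs were seen in 8.86% of neutrophil-like cells (median 2960 UMIs) and in 69.3% of capillary-like cells (median 2083 UMIs).

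Itgb2, the β chain of the leukocyte integrins, reached 675 CPM in non-classical-monocyte-like cells (interval 639 to 711), with 545, 716, 638 and 683 CPM by library, and NK-cell-like cells followed at 308 CPM. All immune-like classes lay between 37.2 CPM (B-cell-like) and 675 CPM, and no non-immune class passed 2.08 CPM. The log2 ratio was 8.27. Of non-classical-monocyte-like cells, 88.9% had an Itgb2 UMI, against 0.178% of capillary-like cells.

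Itgb7, which pairs with Itga4 and Itgae in lymphocytes that home to mucosa, was highest in ILC2-like cells at 238 CPM (interval 194 to 289; 281, 221, 275 and 142 CPM by library). T-cell-like cells had 169 CPM, dendritic-like cells 159 CPM and classical-monocyte-like cells 150 CPM. Itgb7 UMIs were in 65.9% of ILC2-like cells (median 4514 UMIs) and in 0.434% of fibroblast-like cells (median 6484.5 UMIs). Itgb3, the vitronectin-receptor chain of platelets and activated vessels, was also highest in ILC2-like cells, at 75.3 CPM (interval 51.5 to 106; 108, 51.1, 66.1 and 64.3 CPM by library). That rests on 32 UMIs, and lymphatic-like cells at 41.6 CPM gave a ratio of 1.81 (interval 1.00 to 3.34). Itgb3 UMIs were in 20.9% of ILC2-like and 0.310% of capillary-like cells.

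Among the remaining β chains, Itgb5, a vitronectin receptor chain, was highest in pericyte-like cells at 235 CPM (interval 206 to 267; 247, 188, 253 and 220 CPM by library), with 189 CPM in fibroblast-like and 110 CPM in macrophage-like cells. An Itgb5 UMI was in 34.8% of pericyte-like, 65.8% of the deeper fibroblast-like and 0.864% of B-cell-like cells. Itgb8, which with αv activates latent TGF-β, was highest in Schwann-like cells at 155 CPM (interval 108 to 214; 147, 116, 306 and 151 CPM by library), with mesothelial-like cells at 93.1 CPM and fibroblast-like cells at 52.2 CPM. Itgb8 UMIs were in 25.7% of Schwann-like cells (median 2075 UMIs) and in 0.0725% of capillary-like cells. Itgb4, the hemidesmosome chain, reached 125 CPM in Schwann-like cells from 29 UMIs and 37.5 CPM in endocardial-like cells. Itgb6, an epithelial chain, had at most 1.01 CPM in any class.

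Among the collagen receptors, Itga1 was high in pericytes and blood vessel endothelium. It stood at 1256 CPM in pericyte-like cells (interval 1187 to 1328; 1262, 1160, 1166 and 1355 CPM by library), 938 CPM in arterial-like and 908 CPM in capillary-like cells. Schwann-like cells held 623 CPM, Kirrel3-led endothelial-like cells 521 CPM and smooth-muscle-like cells 451 CPM, against 147 CPM in endocardial-like and 46.7 CPM in fibroblast-like cells. UMIs of Itga1 were in 86.3% of pericyte-like and 3.06% of B-cell-like cells. The highest immune-like class was NK-cell-like, at 254 CPM and 48.1% of cells. Itga2 was highest in that class too, at 221 CPM (interval 186 to 260), with Schwann-like cells next at 107 CPM. By library it ran 119, 432, 242 and 104 CPM, from 47, 35, 37 and 35 cells. Itga2 UMIs were in 34.4% of NK-cell-like and 0.332% of B-cell-like cells. Itga10 was found in smooth-muscle-like cells at 84.6 CPM from 21 UMIs, and Itga11, the fibroblast collagen receptor, in fibroblast-like cells at 31.1 CPM with 28.6 to 34.5 CPM by library.

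Of the laminin receptors, Itga6 was led by capillaries. Capillary-like cells held 704 CPM (interval 695 to 713; 672, 734, 724 and 668 CPM by library) and Kirrel3-led endothelial-like cells 466 CPM, while fibroblast-like cells held 3.62 CPM. Itga6 UMIs were in 69.3% of capillary-like cells and in 2.29% of the deeper fibroblast-like cells. Over mesenchymal-like cells the endothelial-like excess was 86.5-fold (interval 77.6 to 96.8). That pool is mostly fibroblast-like (7602 of 8498 cells). Its Schwann-like cells held 236 CPM, above endocardial-like cells at 177 CPM. Itga7, the laminin receptor of muscle, was highest in the 2 mural classes. Pericyte-like cells had 243 CPM (interval 213 to 276; 254, 222, 201 and 254 CPM by library) and smooth-muscle-like cells 193 CPM, which did not differ beyond counting error (ratio 1.26, interval 0.92 to 1.75). Schwann-like cells came next at 17.2 CPM from 4 UMIs. Itga7 UMIs were in 38.2% of pericyte-like and 0.881% of fibroblast-like cells. Itga3, of epithelia, was highest in mesothelial-like cells at 41.2 CPM.

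Among receptors of RGD proteins, Itgav and Itga5 were spread more widely than Itga8, which is given below. Itgav, the αv chain, was found in every class, from 31.5 CPM in capillary-like to 361 CPM in Schwann-like cells (interval 288 to 447; 369, 494, 306 and 285 CPM by library). ILC2-like cells followed at 228 CPM and NK-cell-like cells at 224 CPM, and Schwann-like cells were the highest class in libraries 2, 3 and 4, where they numbered 16, 8 and 26 cells, and ILC2-like cells in library 1. Itgav UMIs were in 46.7% of Schwann-like and 6.31% of capillary-like cells, at median depths of 2075 and 2083 UMIs. Itga5, the fibronectin receptor, ran from 2.35 CPM in ILC2-like cells to 70.2 CPM in endocardial-like cells. The endocardial-like level (interval 65.7 to 75.0; 72.8, 76.9, 60.01 and 69.1 CPM by library) and 67.2 CPM in classical-monocyte-like cells did not differ beyond counting error (ratio 1.05, interval 0.80 to 1.39). Its UMIs were in 21.7% of endocardial-like and 1.26% of B-cell-like cells.

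Itga8, the nephronectin receptor, was highest in the mural classes: 201 CPM in smooth-muscle-like (interval 149 to 266) and 116 CPM in pericyte-like cells. Neutrophil-like cells came next at 28.8 CPM, and they and fibroblast-like cells were also at least 2-fold above all other cells. By library the smooth-muscle-like values were 236, 119, 53.3 and 174 CPM, from 52, 9, 9 and 19 cells. Itga8 UMIs were in 37.1% of these cells (median 2377 UMIs) and in 0.119% of capillary-like cells. Itga2b, the platelet αIIb chain, stayed at or under 12.1 CPM in every class.

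Among leukocyte α chains, Itga4, the chain of VLA-4 that binds VCAM-1 and fibronectin, reached 1998 CPM in non-classical-monocyte-like cells (interval 1936 to 2060; 1767, 2307, 1640 and 1568 CPM by library). Classical-monocyte-like cells had 585 CPM, a ratio of 3.42 (interval 3.11 to 3.76). All 9 immune-like classes held 122 CPM or more, and the endothelial-like classes at most 3.03 CPM. Outside the immune side, Schwann-like cells had 305 CPM of Itga4 (328, 233, 306 and 301 CPM by library) and smooth-muscle-like cells 96.7 CPM. Itga4 UMIs were in 98.3% of non-classical-monocyte-like and 0.631% of fibroblast-like cells.

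Itgal, the αL chain of LFA-1, followed the same lead. Non-classical-monocyte-like cells had 1161 CPM (interval 1114 to 1209; 1218, 1249, 977 and 1091 CPM by library), and neutrophil-like cells at 312 CPM and NK-cell-like cells at 309 CPM were next. Itgal UMIs were in 95.5% of the first and 0.119% of capillary-like cells. Itgam, the αM chain of Mac-1 and complement receptor 3, was shared by myeloid classes. Neutrophil-like cells had 539 CPM (interval 497 to 583; 704, 619, 515 and 426 CPM by library) and non-classical-monocyte-like cells 504 CPM, which did not differ beyond counting error (ratio 1.07, interval 0.97 to 1.18). UMIs of Itgam were in 65.9% of neutrophil-like and 0.118% of fibroblast-like cells.

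Further leukocyte chains were Itgax, Itgae and Itgad. Itgax, the αX chain often used to sort dendritic cells, was highest in NK-cell-like cells at 147 CPM (interval 119 to 180; 177, 131, 115 and 160 CPM by library), above non-classical-monocyte-like cells at 98.4 CPM and dendritic-like cells at 93.4 CPM. Its UMIs were in 37.7% of NK-cell-like, 41.6% of the deeper dendritic-like (median 8802 UMIs) and 0.0264% of capillary-like cells. Itgae, the αE chain that binds E-cadherin, was led by dendritic-like cells at 105 CPM (interval 88.1 to 124; 53.8, 155, 106 and 87.1 CPM by library), with T-cell-like cells at 15.5 CPM. Itgae UMIs were in 23.5% of dendritic-like and 0.237% of fibroblast-like cells. Itgad, the αD chain, was seen in NK-cell-like cells at 50.5 CPM from 33 UMIs (interval 34.8 to 71.0), with 43.0, 26.2, 18.2 and 136 CPM by library and T-cell-like cells next at 4.71 CPM. It was in 16.2% of NK-cell-like and 0.0132% of fibroblast-like cells.

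Itga9, which binds tenascin, VCAM-1 and VEGF-C and is needed for lymphatic valves, was highest in lymphatic-like cells at 402 CPM (interval 347 to 463). Endocardial-like cells had 186 CPM and macrophage-like cells 168 CPM. By library the lymphatic-like level was 286, 708, 253 and 416 CPM, from 35, 27, 34 and 55 cells. Itga9 UMIs were in 52.3% of lymphatic-like cells (median 2591 UMIs) and 0.664% of B-cell-like cells.

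In the GRCm38 annotation Itgam (chr7:128062640-128118491), Itgax (chr7:128129547-128150657) and Itgad (chr7:128154376-128223816) lie next to each other on the plus strand, and Itgal (chr7:127296260-127335138) lies upstream of them on the same strand. Their highest classes were neutrophil-like, NK-cell-like, NK-cell-like and non-classical-monocyte-like.

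For 24 known αβ pairs the level of both chains was read in the same class. Itga1 and Itgb1 stood at 1256 and 1130 CPM in pericyte-like cells, and 72.4% of these cells had a UMI of both. Itga6 and Itgb1 stood at 704 and 686 CPM in capillary-like cells, Itga9 and Itgb1 at 402 and 726 CPM in lymphatic-like cells. The leukocyte pair Itgal and Itgb2 stood at 1161 and 675 CPM in non-classical-monocyte-like cells, where 85.6% of cells had both. Itgam and Itgb2 were at 504 and 675 CPM there, Itgax and Itgb2 at 147 and 308 CPM in NK-cell-like cells. The lymphocyte pair Itga4 and Itgb7 stood at 228 and 238 CPM in ILC2-like cells, where 41.8% of cells had both, and Itgae and Itgb7 at 105 and 159 CPM in dendritic-like cells.

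For the αv chain, whose partners include Itgb1, Itgb3, Itgb5, Itgb6 and Itgb8, transcript levels show no pairing and are given side by side. With Itgav at 361 CPM, Schwann-like cells had Itgb8 at 155 CPM and Itgb1 at 727 CPM. Pericyte-like cells had Itgb5 at 235 CPM and Itgb1 at 1130 CPM with Itgav at 122 CPM, and fibroblast-like cells had 189, 476 and 98.6 CPM of these. ILC2-like cells had Itgb3 at 75.3 CPM with Itgav at 228 CPM. Schwann-like cells were also the highest class for Itga6 with Itgb4, at 236 and 125 CPM. Within a class, cells with and without a UMI of α were compared for a UMI of β after each cell was thinned to 1000 UMIs. In capillary-like cells Itgb1 was found in 47.9% of cells with an Itga1 UMI and in 47.8% of cells without, after 1543 shallower cells were left out. The shares lay further apart in macrophage-like cells, with Itgb1 in 50.8% of Itga6-positive and 33.9% of Itga6-negative cells. In T-cell-like cells Itgb1 was in 32.7% of Itga4-positive and 16.1% of Itga4-negative cells, and in pericyte-like cells in 72.8% of Itga1-positive and 62.0% of Itga1-negative cells. These classes left out 20, 16 and 54 shallower cells. Sub-clusters of the first pair of classes differ in both genes: serous-cavity-type macrophages had 786 CPM of Itga6 and 847 CPM of Itgb1, and CD4-like T cells 662 CPM of Itga4 and 973 CPM of Itgb1. Their part in these shares was not tested. The shares carry no interval, and the classes given are examples from 24 pairs over 19 classes. Whether a gap exceeds counting error was not tested.

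**Figure D3:**
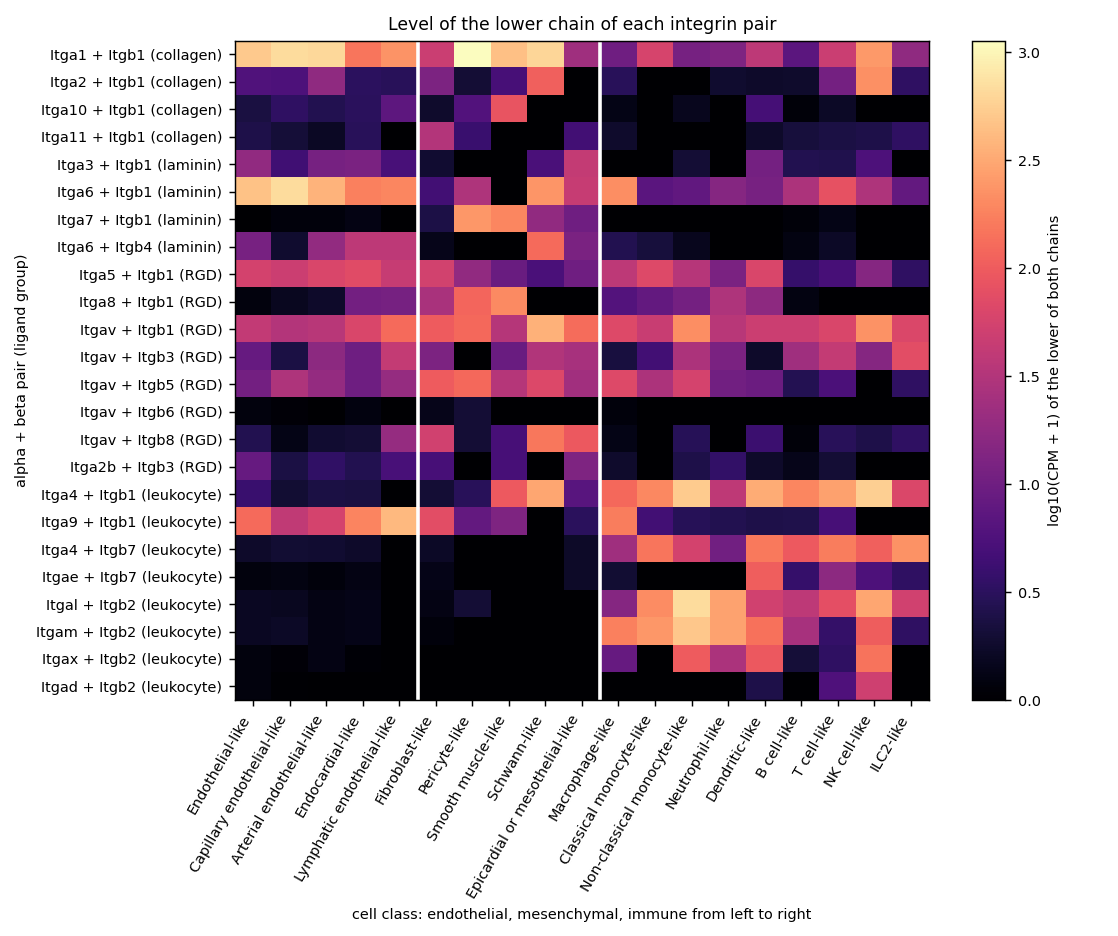
Lower of the α and β level of each of the 24 integrin pairs (rows, with the ligand group) in each class (columns), as log10(CPM + 1). The colour is a display of joint presence and no ranking of one gene over another; the pericyte-like column is brightest for Itga1 + Itgb1 and the non-classical-monocyte-like column for Itgal + Itgb2.

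The linkers apart from kindlins fell into a broad and a matrix-side group. Tln1, talin-1, the main activator of integrins, was found in every class, from 164 CPM in fibroblast-like cells up. It was highest in non-classical-monocyte-like cells at 1130 CPM (interval 1084 to 1177; 1149, 1142, 1107 and 1104 CPM by library), with classical-monocyte-like cells at 778 CPM. UMIs of Tln1 were in 94.6% of the first, and the lowest share of any class was 40.0%, in capillary-like cells. Tln2, talin-2, was highest in Schwann-like cells at 245 CPM (interval 186 to 317; 238, 262, 183 and 268 CPM by library), with Kirrel3-led endothelial-like cells at 134 CPM. Tln2 UMIs were in 35.2% of Schwann-like and 0.399% of B-cell-like cells.

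Parva, α-parvin of the ILK-PINCH-parvin complex, held 94.4 to 194 CPM in non-immune classes and at most 5.23 CPM in immune-like classes. Lymphatic-like cells led at 194 CPM (interval 156 to 237; 173, 182, 243 and 185 CPM by library), and pericyte-like cells at 161 CPM did not differ from them beyond counting error (ratio 1.203, interval 0.92 to 1.56). Its UMIs were in 45.7% of lymphatic-like and 0.930% of B-cell-like cells. Ilk itself ran from 26.4 to 125 CPM over the classes and was among the members lower in immune-like cells. Its ranges overlapped too, with 83.7 CPM in classical-monocyte-like and 47.5 CPM in endocardial-like cells. Vcl, vinculin, which ties talin to actin, was highest in pericyte-like cells at 489 CPM (interval 446 to 535; 467, 478, 572 and 498 CPM by library), then Schwann-like at 348 CPM and smooth-muscle-like cells at 302 CPM. Vcl UMIs were in 58.0% of pericyte-like and 6.56% of T-cell-like cells. The compartments overlapped for Vcl, with 107 CPM in non-classical-monocyte-like and 105 CPM in mesothelial-like cells. Ptk2, focal adhesion kinase, stood at 489 CPM in capillary-like (interval 481 to 496; 466, 478, 518 and 476 CPM by library), 459 CPM in arterial-like, 335 CPM in Schwann-like, 251 CPM in pericyte-like, 216 CPM in lymphatic-like and 103 CPM in fibroblast-like cells. Ptk2 UMIs were in 60.2% of capillary-like and 3.47% of non-classical-monocyte-like cells.

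A pair of lists from the same pathway were read alongside: the ligands of these receptors and the other genes of the adhesion complex. All 7 collagens and all 8 laminin-type genes with enough UMIs were at least 2-fold lower in immune-like than in non-immune cells. Col4a1, of basement membrane, was highest in capillary-like cells at 1440 CPM, and Lama2 in pericyte-like cells at 1564 CPM. Over all features 17.6% were higher and 30.5% lower by this rule. Of 9 RGD ligands, 5 were higher (Fn1, Spp1, Thbs1, Tgfb1 and Edil3) and 4 lower. Vtn, vitronectin, was a pericyte-like gene at 1683 CPM, in the same class as the vitronectin receptor chain Itgb5. Fn1, fibronectin, was highest in macrophage-like cells at 1558 CPM, but with 165, 3831, 66.6 and 3275 CPM by library and a UMI in 11.9% of the cells. Fn1 and Thbs1 lead the serous-cavity-type sub-cluster of 112 macrophage-like cells described below. Without it, macrophage-like Fn1 was 38.2 CPM, and its log2 ratio of immune-like over non-immune cells was -0.96 in place of 1.93. The ratio of Thbs1 was 0.60 in place of 2.36 and that of Edil3 0.92 in place of 1.18, so Spp1 and Tgfb1 were the RGD ligands still at least 2-fold higher. Of 6 ligands of leukocyte receptors, 5 were lower, and Vcam1, the ligand of α4β1, was highest in endocardial-like cells at 429 CPM.

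In the adhesion complex, 2 of 13 adaptors were higher in immune-like cells (Vasp and Flna) and 6 lower, the higher share being near that of all features (17.6%). Of 5 kinases, Ptk2b and Pak1 were higher and Src lower. Ptk2b, the close relative of Ptk2, had 426 CPM in non-classical-monocyte-like cells, where Ptk2 had 7.95 CPM. Of 5 ILK-PINCH-parvin partners, Parvg was higher and Lims2, Parvb and Rsu1 lower. Parvg, the leukocyte parvin, reached 42.9 CPM in dendritic-like cells. Of 11 activators and inhibitors, 2 (Apbb1ip, also called RIAM, and Rap1b) were higher and Rasip1 and Kank1, Kank2 and Kank3 lower. Apbb1ip was highest in non-classical-monocyte-like cells at 1025 CPM. These counts describe 1 table and were not tested.

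Sub-clusters were then read inside each class, again without the members in the clustering. The capillary and arteriolar sub-clusters carried Itga1 and Itga6, and Itga1 stood at 987 CPM in the Btnl9-led capillary sub-cluster and 104 CPM in the valve-type endocardium. Itga6 was 822 CPM in the Nrp2- and Aplnr-led sub-cluster and 130 CPM in the valve-type endocardium. Itga9 ran the other way, with 406 CPM in lymphatic, 326 CPM in valve-type and 305 CPM in venous sub-clusters, against 17.6 to 32.3 CPM in the 3 capillary ones. Itgb4 stood at 110 CPM in venous and 83.8 CPM in valve-type cells and at no more than 1.09 CPM in the capillary sub-clusters. Of the 162 cells of the venous sub-cluster, 156 belonged to the endocardial-like class, and no class was named venous. In all 4 libraries Itgb4 was at 94.7 CPM or more in venous and at 0.956 CPM or less in the Btnl9-led cells.

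**Figure D4:**
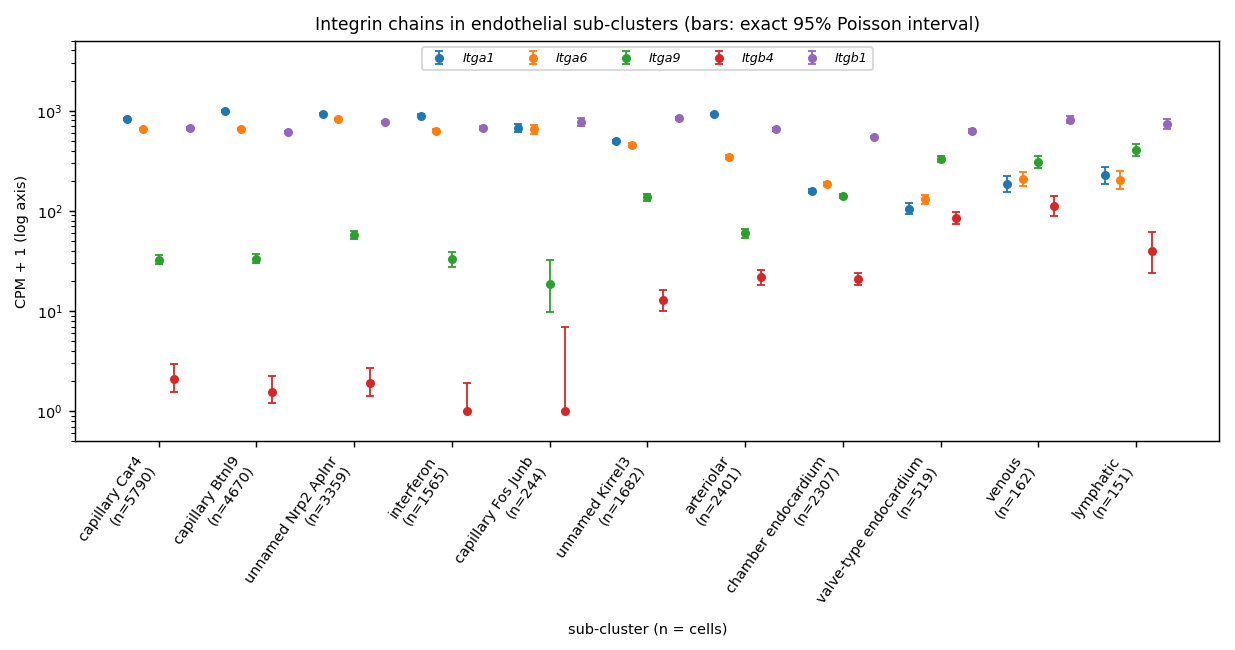
Levels of Itga1, Itga6, Itga9, Itgb4 and Itgb1 (CPM + 1, log axis, exact 95% Poisson interval) in the endothelial-like sub-clusters. Itga1 and Itga6 are high in capillary sub-clusters and low in valve-type, venous and lymphatic cells, where Itga9 and Itgb4 are higher, while Itgb1 stays within 548 to 839 CPM.

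NK-cell-like cells split into an Eomes- and Klra8-led sub-cluster (62 cells), a Cxcr3- and Cd38-led one (49 cells) and a Gzmc- and Ccl1-led one (43 cells), with Cd3g among the leading genes of the second. Itga2 was 503 CPM in the first (interval 420 to 597) and 19.99 and 51.5 CPM in the others. Itgam was 259 CPM in the first, where it is a leading gene, and 0 UMIs in both others, which, at a limit of 3 UMIs, allows up to 14.99 and 15.4 CPM. Itga1 was 73.5 CPM in the first, 235 CPM in the second and 515 CPM in the last, and Itgad was 3.87, 99.95 and 61.8 CPM. Libraries 1 to 4 gave 7, 23, 23 and 9 cells to the first, 22, 5, 6 and 16 to the second and 18, 7, 8 and 10 to the last. The part of this makeup in the library values of Itga2 and Itgad was not tested.

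Dendritic-like cells separated by Itgae and Itgam. The Xcr1- and Irf8-led sub-cluster had 283 CPM of Itgae (interval 237 to 335; 170, 414, 264 and 229 CPM by library) and 0 UMIs of Itgam, which allows up to 6.28 CPM at the same limit. The Cd209a- and Mgl2-led one had 271 CPM of Itgam and 5.12 CPM of Itgae, and the Ccr7- and Il4i1-led one 174 CPM of Itgam and 0 UMIs of Itgae, which allows up to 6.86 CPM. Itgb7 was alike in the 3, at 151 to 166 CPM.

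Macrophage-like cells held 1 sub-cluster that stood apart, the serous-cavity type with 112 cells, of which 76 came from library 2 and 33 from library 4. It had 968 CPM of Itgam, 786 CPM of Itga6, 482 CPM of Itgb2 and 92.5 CPM of Itgb7, against 128 to 245, 41.8 to 115, 79.0 to 112 and 2.29 to 5.52 CPM in the other 3. It had 3.08 CPM of Itgb5, which those had at 123 to 165 CPM. Without it, the macrophage-like level of Itga6 was 68.7 in place of 216 CPM, of Itgam 176 in place of 339 CPM and of Itgb2 98.1 in place of 177 CPM. Itga9 was 197 in place of 168 CPM and Itgb5 138 in place of 110 CPM. By library the macrophage-like Itgam level was 195, 578, 182 and 512 CPM, highest in the 2 libraries that held most serous-cavity-type cells.

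B-cell-like cells split by Itgb1 and Itgam. B-1-type cells (385, of which 292 in library 2) had 384 CPM of Itgb1 and 51.3 CPM of Itgam. The 2 B-2 sub-clusters had 28.4 and 58.3 CPM of Itgb1 and 1.03 and 8.85 CPM of Itgam, while Itga4 was 378 to 434 CPM in all 3 named sub-clusters. The unnamed Atrnl1-led sub-cluster lay between for Itgb1, at 78.7 CPM. For Itga4 it was the highest B-cell-like sub-cluster, at 585 CPM (interval 518 to 659). In T-cell-like cells the CD4-like sub-cluster of 151 cells, in which Itgb1 is a leading gene, had 973 CPM of Itgb1, 662 CPM of Itga4 and 172 CPM of Itga1. The largest sub-cluster, unnamed with Cd4 among its leading genes, had 64.0 CPM of Itgb1 and 10.3 CPM of Itga1. The Cd163l1- and Trdc-led sub-cluster had the most Itgb7, at 450 CPM.

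**Figure D5:**
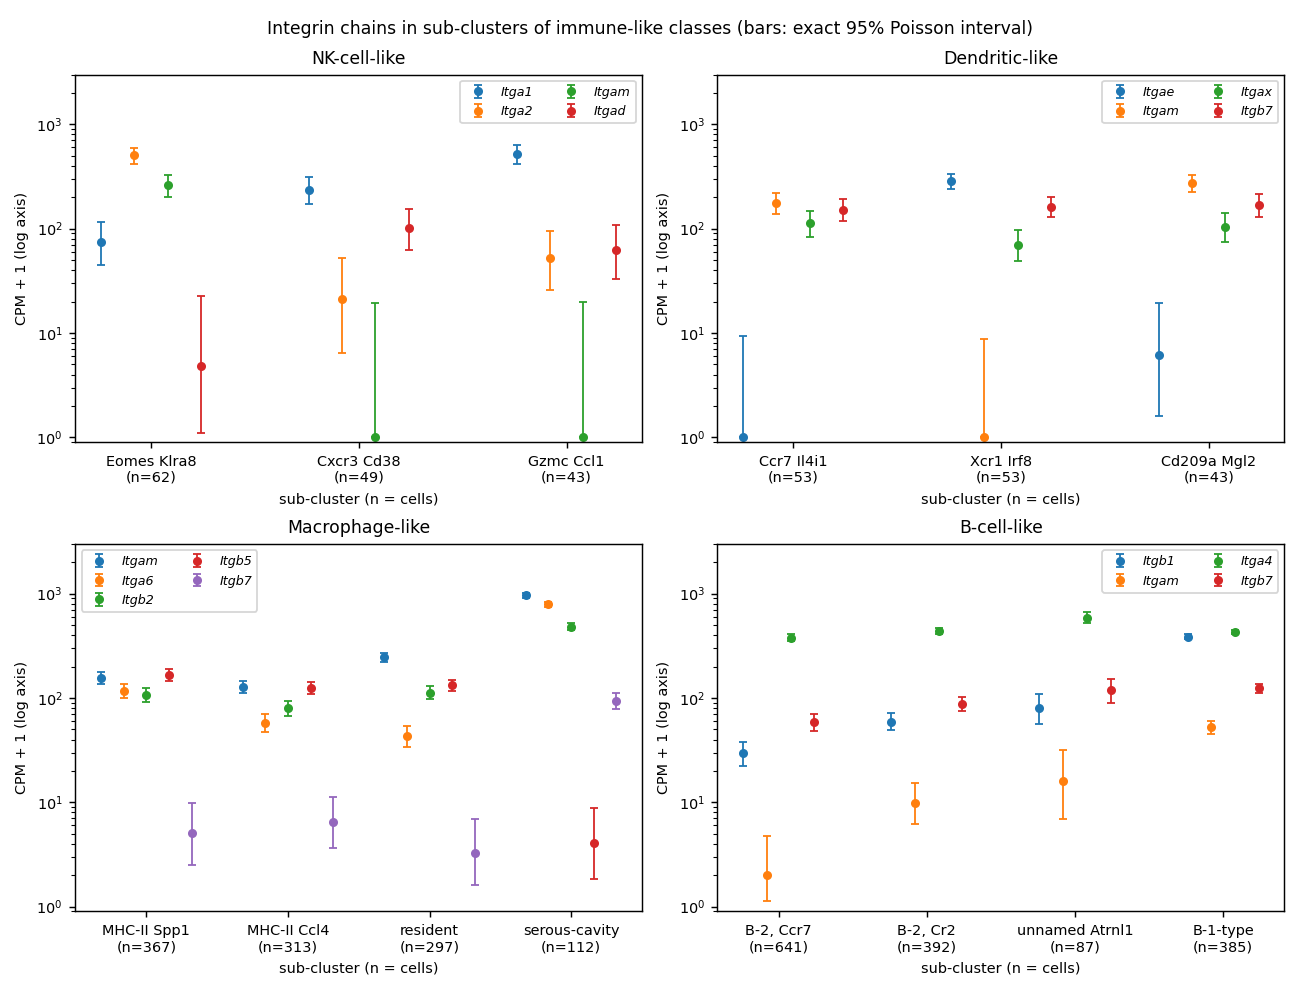
Levels of selected integrin chains (CPM + 1, log axis, bars: exact 95% Poisson interval) in sub-clusters of NK-cell-like, dendritic-like, macrophage-like and B-cell-like cells. Itgam is at 0 in 2 of 3 NK-cell-like sub-clusters and in the Xcr1-led dendritic-like one, and the serous-cavity-type macrophages are high in Itgam and Itga6.

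Other classes varied as well. The Chil3-, Camp- and Ngp-led neutrophil-like sub-cluster (35 cells) had 45.4 CPM of Itga4, against 177 to 419 CPM in the other 3, and 758 CPM of Itgam, against 383 to 567 CPM. The 3 non-classical-monocyte-like sub-clusters all kept a high Itga4, at 1363 to 2261 CPM, although C1qa and Igkc lead the second of them. In fibroblast-like cells Itga8 ran from 0.695 CPM in a Pi16- and Cd248-type sub-cluster to 64.8 CPM in the Cxcl14-type one, and Vcl was 253 CPM in the Mfap4- and Osr1-type sub-cluster against 85.4 CPM in the Cxcl14-type one. A sub-cluster of 70 fibroblast-like cells with a median of 2195 UMIs, led by Taco1, Gm26917 and Lncpint, held 264 CPM of Tln2, 417 CPM of Ptk2 and 405 CPM of Parva. The other sub-clusters had 37.5 to 112, 73.9 to 128 and 108 to 187 CPM of them. Tln2, Ptk2 and Parva span 342.6, 218.2 and 164.2 kb, and the part of gene length and depth in those values was not tested. Itgav, Parva, Tln2 and Ptk2 overlap a gene on the other strand (Gm13684, Parvaos, Gm47047 and 1700085D07Rik). So do other members, among them Fermt3 (Trpt1), Itga4 (Cerkl), Tln1 (Creb3), Vcl (Ap3m1) and Ilk (Rrp8 and Taf10). Itga1, Itga6, Itga10 and Itgam overlap a gene on the same strand. No source used here says whether the counting used strand or intronic reads.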

How the data were processed

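Single-cell 3′ libraries of mouse heart interstitial cells were processed with Cell Ranger 7.1.0 on mm10, per the submitters' processing notes. The deposited table holds raw UMI counts per gene and barcode for 4 libraries. Barcodes with at least 500 UMIs, 250 genes and at most 15% mitochondrial UMIs were kept (821 failed), and 967 doublets called by a Scrublet-type simulation were removed. In library 3 the automatic threshold marked 1 of 8813 barcodes, so that library took the median of the other 3 thresholds. Cells were clustered (Python 3.11.15, scikit-learn 1.9.0, leidenalg 0.10.2; 2000 variable genes, 30 components, 15 neighbours, resolution 1) without the members or the listed pathway genes. Classes needed 3 markers and 50 cells. Unnamed clusters (1160 cells) and sub-clusters mixed with another lineage (854 cells, a choice made after seeing the data) were left out. Counts were summed per class and divided by its total. Poisson, Clopper-Pearson and conditional binomial intervals were exact. A member was given in full where its highest class had at least 50 CPM and 30 UMIs. A count of 0 was given a limit of 3 UMIs. Calls were 2-fold, over features with at least 50 UMIs. With no tie from library to sample, no test between groups was made. The summing was tested on simulated data. Members and lists were chosen with earlier results of these data known.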

Additional observations from a re-analysis of the deposited data

Results flagged for a closer look

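For Parva in lymphatic-like cells, library 3 stood apart from the other libraries at 242.8 CPM, against 173 to 185 CPM in the others. It was the 1 of 21 member values compared over 4 libraries whose gap to its neighbour was large for the range of the 4. Chance alone gives about 1 in 20, and the libraries are of unknown condition.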

How the results depend on the processing

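The count of 30 members at least 2-fold higher in a class stayed between 29 and 31 under all alternatives run, and between 29 and 30 when each library was left out. As log2 ratios of immune-like over non-immune cells, Itgb1 moved from -0.82 to -1.09 with cells weighted equally and -1.07 with cells thinned to 1000 UMIs, and Itgb2 from 8.27 to 7.67 and 8.72. Fermt2 moved from -6.27 to -4.07 with doublets kept and to -4.37 with mixed sub-clusters kept, an alternative added after seeing the data, and Fermt3 from 6.86 to 6.51 after thinning. The causes were not tested. Leaving out each library in turn gave -0.87 to -0.79 for Itgb1, 8.00 to 8.91 for Itgb2, -6.56 to -6.09 for Fermt2 and 6.73 to 6.95 for Fermt3. For the 27 members given in full, the fold in the highest class did not reverse in the alternatives run. That class was picked as the highest in these same data, so a reversal was unlikely from the start. The 7 other members were not run in this way. The immune-like over non-immune log2 ratios of Itgb1, Itgb2, Fermt2 and Fermt3 also kept their sign. Fn1, a ligand, went from 1.93 to -0.96 without the serous-cavity-type macrophages, an alternative added after seeing the data. Itgad in NK-cell-like cells stood at a log2 fold over other cells of 8.50, at 10.13 without library 2 and at 7.45 without library 4. Without library 1 the smooth-muscle-like class fell under 50 cells, so Itga8 had no value there. Alternatives on stroke against control were not run. No paired analysis was possible because no label ties a library to a sample. Depth limits the rarer chains: Itgad, Itgb3, Itgb4 and Itga10 rest on 33, 32, 29 and 21 UMIs in their highest class.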
